A study of Arabidopsis thaliana with 24 samples.

Results

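Whole siliques of Arabidopsis thaliana with the seeds inside them were compared between seed stage 5 and seed stage 4, 3 arrays against 3, which are 6 of the 24 arrays of the series. The members were taken from the tissue label of each sample. Both groups are of the accession Col-0, and their labels name no mutation, treatment, age in days or growth condition. Their titles carry the letters D, E and F at both stages. Biotin-labelled RNA was read on Affymetrix ATH1 arrays, on which short probes for a transcript are grouped into a probe set and summarized as 1 signal. The series also holds whole siliques at stage 3 and seeds taken out of the silique at stages 6, 7, 8, 9 and 10, all with 3 arrays a group. The labels do not state whether the 3 samples of a stage are from different plants. A p-value here therefore measures only the spread between the arrays of a group, taken over all 24 arrays, and that spread may be technical.

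The Arabidopsis silique is a fruit of 2 valves around the seeds, and each seed holds an embryo, the endosperm and a maternal seed coat. In the published description of these stages most embryos pass from the heart form at stage 4 to the torpedo form at stage 5. Embryo filling, the laying down of storage proteins and of oil in bodies coated with oleosins, begins at about this time, under transcription factors that act with abscisic acid. In the growing silique the inner layer of the valves and their margins lay down secondary walls with lignin and xylan. A whole silique mixes the RNA of all these tissues, so fewer cells of a type and less RNA per cell cannot be told apart.

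The arrays of a stage were close to each other. On the log2 scale 2 arrays of 1 stage correlated across probe sets at 0.987 to 0.993, and 2 arrays of different stages at 0.960 to 0.963. Median signals lay between 40.3 and 42.4 on the 6 arrays, and the 40th percentile between 22.9 and 24.1. The ratio of the 3' to the 5' ubiquitin control probe sets, a measure of RNA and labelling quality, was 1.23 to 1.30 at stage 4 and 1.47 to 1.59 at stage 5, and that of actin 2.44 to 2.90 and 2.44 to 2.81. The ubiquitin ratios did not overlap, and their part in the results below was not tested. Markers of several tissues were read at both stages. BAN, the anthocyanidin reductase of the seed coat, read 1754 to 1799 at stage 4 and 1082 to 1104 at stage 5, ALC, a regulator of valve opening, 202 to 222 and 157 to 166, and OLEO3, an oleosin of the embryo, 2092 to 2128 and 3191 to 3336. The endosperm marker MPC stayed under the 40th percentile on all 6 arrays, at 9.55 to 14.7 and 6.96 to 11.4.

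Of 16967 probe sets tested, 320 were higher at stage 5 (1.89%) and 245 were lower (1.44%), 565 or 3.33% in all. A call needed an adjusted p under 0.05 from limma, by the method of Benjamini and Hochberg, and a change of 2-fold or more on the log2(signal + 7) scale, and "rose" and "fell" are used only of such probe sets. By the adjusted p alone 1591 were higher (9.38%) and 1358 lower (8%), 2949 or 17.4% in all. The median difference of all tested probe sets was -0.02. On all 320 and all 245 called probe sets the 3 arrays of 1 stage lay entirely above the 3 of the other, which was the case for 40.7% of all tested probe sets. The higher side reached further: 69 probe sets were over 4-fold higher and 22 over 4-fold lower, and 18 and 3 were past 8-fold. The annotation gave exactly 1 gene for 158 of the higher and 123 of the lower probe sets, and the other 162 and 122 are not named here.

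**Figure D1:**
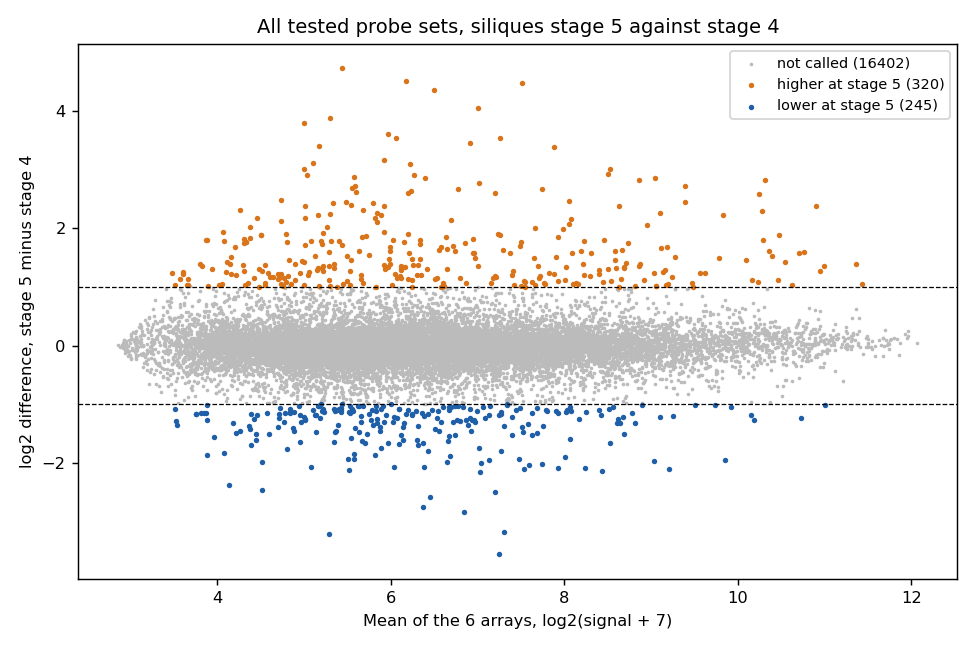
The mean log2(signal + 7) of the 6 arrays (horizontal) is plotted against the log2 difference of stage 5 minus stage 4 (vertical) for every tested probe set. The 320 higher and 245 lower probe sets are coloured, dashed lines mark 2-fold, and the higher ones extend further from 0, to 4.73 among those of 1 gene, than the lower ones, to -3.56.

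The largest rise among probe sets of 1 gene was that of AT1G62210, which read 1.09, 1.2 and 2.03 on stage 4 arrays D, E and F and 229, 221 and 203 at stage 5. It went from the dimmest part of the array to above the median signal, a log2 difference of 4.73 ± 0.09 (SE, adjusted p = 9.58e-23 by limma). AT5G09480 read 7.36, 7.56 and 9.23 and then 335, 332 and 349 (4.52 ± 0.08, adjusted p = 3.89e-23 by limma). AT1G03890, from the list of seed storage proteins, read 33.7, 31.7 and 29.2 and then 817, 876 and 868 (4.48 ± 0.11, adjusted p = 6.56e-20 by limma). For these genes, taken from the top of the ranking, the 3 arrays of a stage spread far less than the stages stood apart. The next in order were AT4G38080 (3.89), AT1G14950 (3.61), AT4G31830 (3.54), AT2G15010 (3.46), AT1G04560 (3.39), AT2G20870 (3.17), AT1G05450 (3.11), AT3G02480 (3.11) and AT3G22620 (3.01). ICL, isocitrate lyase of the glyoxylate cycle, which turns fatty acid carbon into sugar precursors in seedlings, read 10.9, 0.98 and 5.10 at stage 4 and 88.3, 77.8 and 83.8 at stage 5 (2.91 ± 0.16, adjusted p = 3.02e-13 by limma). AT4G36610, the last of the 14, rose by 2.79. The differences of the dimmest genes depend on the offset: without one AT1G62210 differed by 7.29 and ICL by 4.46, and with an offset 4 times larger by 3.06 and 1.74.

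**Figure D2:**
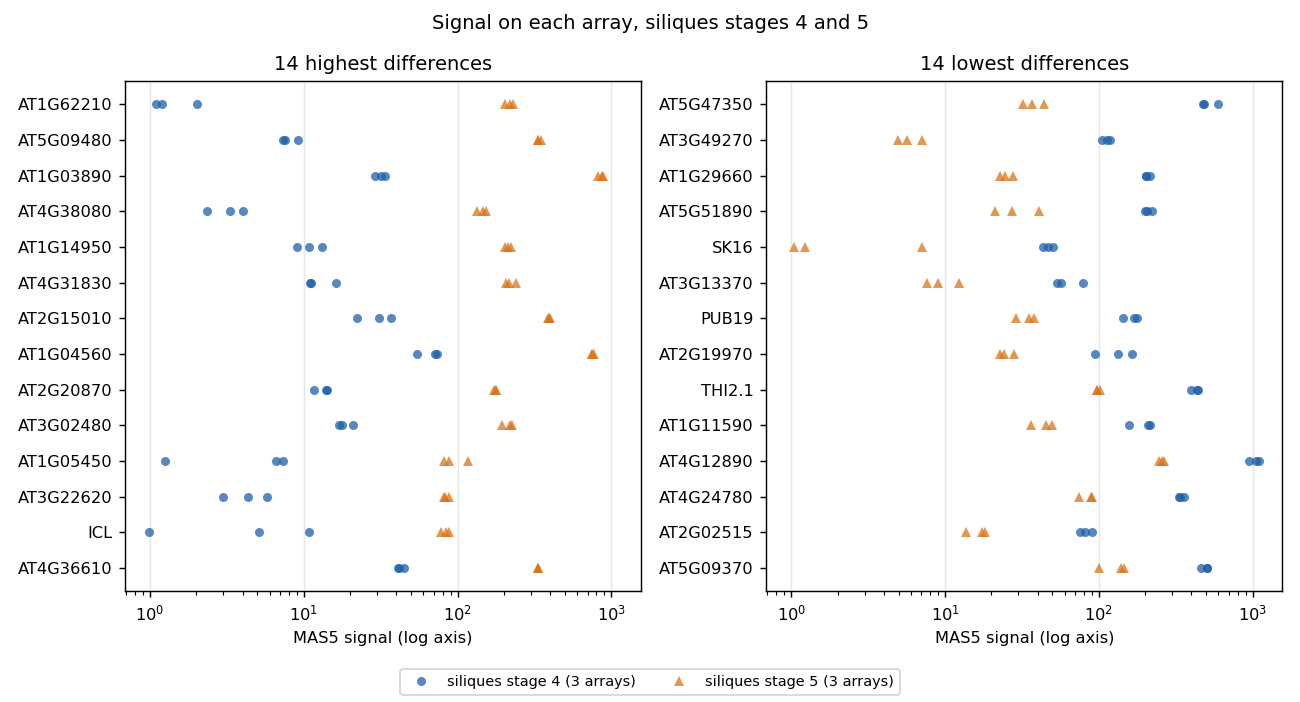
The signal on each of the 6 arrays (log axis) is shown for the 14 genes with the highest and the 14 with the lowest difference, circles for siliques stage 4 and triangles for siliques stage 5. In each of the 28 genes the 3 arrays of 1 stage lie clear of the 3 of the other, which was a condition of their choice.

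Stage 3 siliques and the seed groups place the 14 genes in the series. The arrays of these groups did not enter the log2 differences. They did enter the filter and the spread behind each SE and adjusted p. The mean of 13 of the 14 in seeds stage 6 was above that in siliques stage 5. AT1G14950 went on from 16.8 ± 2.04 (SD, n = 3) at stage 3 to 2217 ± 62.5 and 10540 in seeds of stages 6 and 10, and AT1G04560 from 11 ± 3.67 at stage 3 to 3712 ± 141 and 10800. AT1G62210, AT3G22620 and AT4G36610 were high in between, at 645 ± 31.2, 617 ± 22.4 and 954 ± 29.4 in seeds stage 6 but at 100.7, 77.8 and 133 in seeds stage 10. The exception was AT2G20870, which stood at 445 ± 10.4 at stage 3, at 13.3 ± 1.42 and 176 ± 2.75 in the compared stages and at 13.2 ± 9.71 in seeds stage 6.

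Genes of seed filling made up most of the calls among the lists. The lists were chosen with earlier results of these data known. Of the 5 tested storage protein genes 3 rose, beside 1.89% of all probe sets, with a list median of 2.23 against -0.02 for all probe sets. PAP85, a vicilin-like globulin, read 263, 256 and 246 at stage 4 and 1789, 1736 and 1669 at stage 5 (2.73 ± 0.10, adjusted p = 9.18e-17 by limma). AT2G28490 of the same list went from 332, 446 and 471 to 1775, 2122 and 2006 (2.23 ± 0.12, adjusted p = 2.93e-13 by limma). AT1G03890 is described above. The other members were AT4G36700, already at 1344 to 1642 at stage 4 and at 2123 to 2434 at stage 5 (0.65), and AT2G18540, at 5.06 to 6.92 and 10.3 to 17.6 (0.74). Both had all stage 5 arrays above all stage 4 arrays without reaching 2-fold, but AT2G18540 differed by 1.29 and passed when no offset was used. Their steps before stage 4 differed. AT4G36700 had gone up by 7.53 from stage 3 to 4 and AT2G28490 by 5.15, while AT1G03890 had gone up by 1.80.

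In the list of oil body proteins 3 of 4 tested genes rose, beside 1.89% of all probe sets. AT3G18570 read 56.2, 81.7 and 77.5 at stage 4 and 253, 290 and 316 at stage 5 (1.91 ± 0.12, adjusted p = 2.73e-12 by limma). AT3G01570 read 1222, 1273 and 1305 and then 3383, 3231 and 3181 (1.36 ± 0.19, adjusted p = 4.80e-06 by limma), and AT2G25890 24.6, 23.6 and 30.6 and then 66.5, 68.2 and 74.1 (1.21 ± 0.13, adjusted p = 5.80e-08 by limma). In each of these the stage 5 arrays lay above the stage 4 arrays, and the list median was 1.28. The remaining member, OLEO3, differed by 0.63 ± 0.07 (adjusted p = 2.00e-07 by limma), short of 2-fold. With an offset 4 times larger AT2G25890 was at 0.85 and lost its call. OLEO3 went on to 4552 ± 179 (SD, n = 3) in seeds stage 6 and 1370 in seeds stage 10, and AT3G01570 to 5109 ± 239 and 10170.

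Late embryogenesis abundant proteins are hydrophilic proteins that gather in embryos before drying. Of the 16 tested genes of their list 6 rose, beside 1.89% of all probe sets, none fell and the median was 0.47. The strongest was AT3G02480, at 20.8, 17.7 and 17.1 and then 193, 225 and 219 (3.11 ± 0.10, adjusted p = 1.24e-17 by limma). AT3G17520 went from 12.5, 12.8 and 14.8 to 95.9, 101.4 and 105 (2.40 ± 0.08), and AT4G21020 from 13.8, 12.3 and 4.20 to 62.1, 88.6 and 64.0 (2.24 ± 0.16). AT3G15670, AT5G44310 and AT1G72100 rose by 1.77, 1.52 and 1.40 to signals between 16.6 and 54.3, and with an offset 4 times larger lay at 0.86, 0.95 and 0.64 without a call. AT1G72100 did not pass the filter on the 6 arrays of stages 4 and 5 alone. The dehydrin gene with the symbol LEA, found through its family name, read 23.1, 21.9 and 24.3 and then 172, 181 and 189 (2.64 ± 0.09, adjusted p = 4.88e-17 by limma). Other members were not yet up: M10 read 0.24 to 0.77 at stage 4 and 0.44 to 0.65 at stage 5 and reached 5801 in seeds stage 10, and AT3G22490 read 0.28 to 0.36, 0.64 to 1.05 and 1531. AtLEA4-1, at 31.7 to 52.3 and 84.7 to 96.0, lay at 0.98 and was called at 1.11 without stage 4 array E and at 1.03 without array F.

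**Figure D3:**
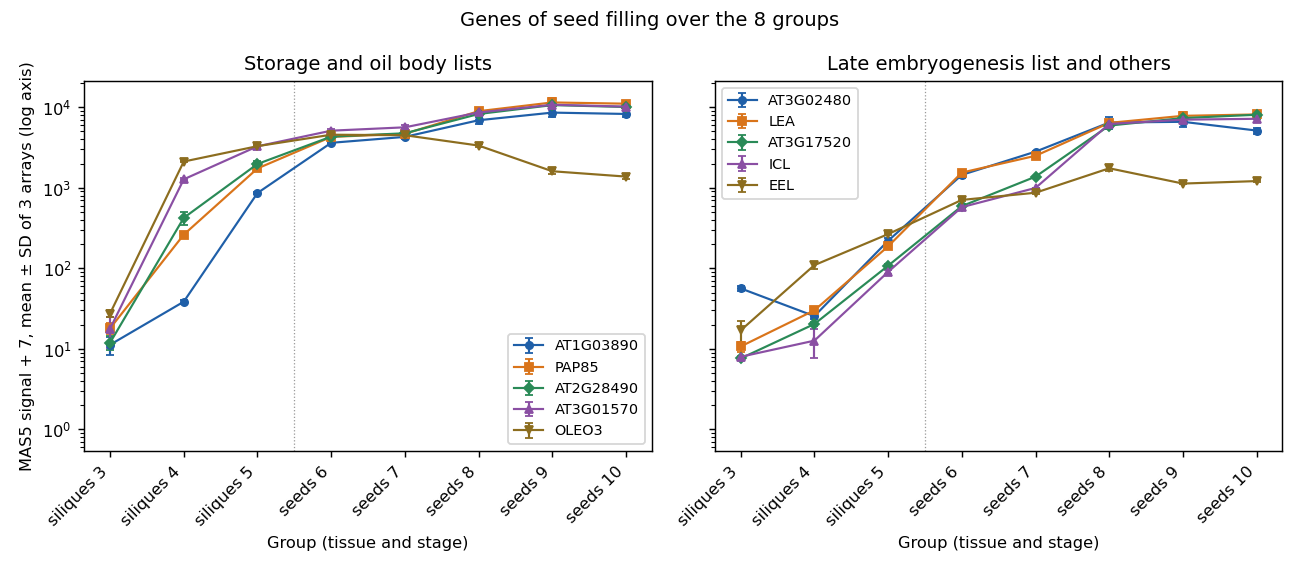
Mean MAS5 signal + 7 (log axis) with SD over 3 arrays is drawn for 10 genes across the 8 groups, and the dotted line separates whole siliques from seeds. Each of the 10 was higher at siliques stage 5 than at stage 4, and of these OLEO3 alone was lower in seeds stage 10 than at siliques stage 5.

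Regulators and enzymes tied to filling gave single calls, beside 1.89% of all probe sets called higher. The list of seed maturation factors had 1 call among 2 tested genes, and the MADS-box family had 1 among 13. EEL, a bZIP factor that acts on late embryogenesis promoters, read 113, 104 and 90.4 and then 252, 268 and 256 (1.28 ± 0.13, adjusted p = 3.83e-08 by limma). BZIP53, a bZIP factor that acts on storage genes, read 352 to 368 and 364 to 403 and differed by 0.11. AGL67, a MADS-box factor of seeds, read 0.31, 0.32 and 2.48 and then 11.8, 13.7 and 9.94 (1.23 ± 0.16), a rise within the dimmest signals that an offset 4 times larger reduced to 0.45, without a call. The vacuolar processing enzymes, proteases that cut storage proteins and other vacuolar cargo, did not move together. None of the 3 tested genes of the storage vacuole list, BETA-VPE, GAMMA-VPE and DELTA-VPE, was called. ALPHA-VPE, which is not on that list and was named after its values were seen, rose from 208, 214 and 219 to 478, 536 and 512 (1.22 ± 0.10). BETA-VPE, the main form of seeds, read 281 to 293 and 559 to 581 (0.97 ± 0.07, adjusted p = 1.28e-10 by limma), GAMMA-VPE 878 to 1277 and 1268 to 1301 (0.21), and DELTA-VPE, of the seed coat, 1879 to 1995 and 1023 to 1156 (-0.86 ± 0.07, adjusted p = 7.17e-10 by limma). BETA-VPE and DELTA-VPE passed the adjusted p in opposite directions without reaching 2-fold, though DELTA-VPE was called at -1.23 after quantile normalization.

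The 4 lists of fatty acid synthesis, sugar transport, starch and glucosinolates held 1 call among 14 tested genes (7.1%, against 3.33% of all probe sets). None of the 7 tested genes of plastid fatty acid synthesis was called, and their differences ran from -0.27 for FATB, a thioesterase that releases mainly saturated chains, to 0.48 for FaTA, which releases oleate, with a median of 0.29. The sucrose exporter genes SWEET11 and SAG29 (SWEET15), which pass sugar from seed coat to embryo, stood at 1052 to 1270 and 1573 to 1608 (0.41), and at 463 to 513 and 931 to 1019 (0.99). SAG29 lay at the edge of 2-fold and was called at 1.04 without stage 4 array D and at 1.01 without stage 5 array E or F. In the glucosinolate list AOP3, a dioxygenase that modifies side chains, rose from 375, 339 and 358 to 895, 843 and 864 (1.26 ± 0.15), and BCAT4, the first enzyme of methionine chain elongation, read 281 to 311 and 490 to 524 (0.73). The transporters GTR1 and GTR2 differed by 0.25 and 0.17. APL3, a large subunit of the starch enzyme ADP-glucose pyrophosphorylase, read 219, 179 and 175 and then 77.7, 70.7 and 70.4 (-1.30 ± 0.27), and was not called without an offset. SBE2.2, a starch branching enzyme and the only tested gene of the starch list, differed by -0.13.

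**Figure D4:**
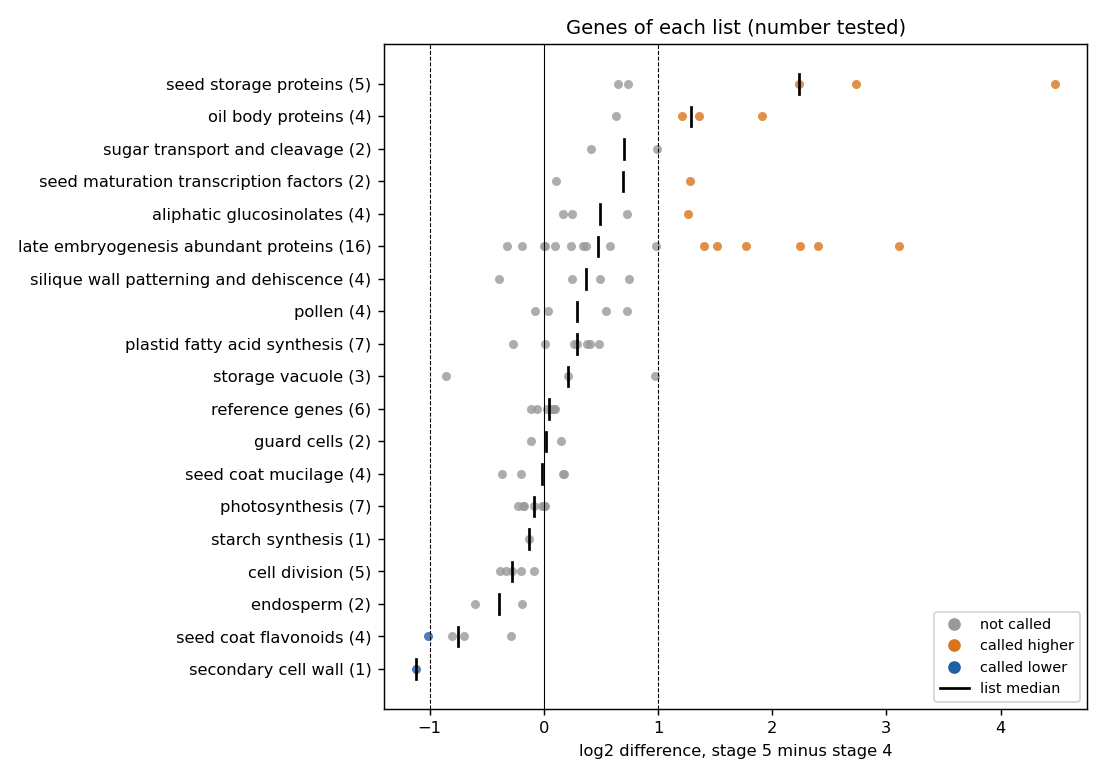
Each point is a tested gene of a list at its log2 difference of stage 5 minus stage 4, with the list's median as a bar, dashed lines at 2-fold and the number of tested genes in brackets. Higher calls sit in 5 lists, with 6 in late embryogenesis abundant proteins and 3 each in storage and oil body proteins, and the 2 lower calls are DFR and GUT2.

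On the lower side AT5G47350 led, with 596, 484 and 477 at stage 4 and 43.8, 36.8 and 32.0 at stage 5 (-3.56 ± 0.17, adjusted p = 2.71e-14 by limma). AT3G49270 read 118, 112 and 105 and then 7.11, 5.68 and 4.96 (-3.21 ± 0.22, adjusted p = 2.25e-11 by limma), and AT1G29660 203, 216 and 204 and then 24.5, 22.7 and 27.5 (-2.75 ± 0.13, adjusted p = 3.12e-14 by limma). All 3 went from above the median signal to below it or close to it. THI2.1, a thionin of defence, read 438, 439 and 400 and then 102, 97.5 and 97.9 (-2.03 ± 0.17, adjusted p = 1.93e-09 by limma). PUB19, a U-box ubiquitin ligase, read 144, 178 and 171 and then 28.9, 35.0 and 38.0 (-2.07 ± 0.20, adjusted p = 1.87e-08 by limma). SK16, a SKP1-like subunit of ubiquitin ligases, read 50.7, 46.9 and 43.7 and then 1.22, 7.13 and 1.05 (-2.46 ± 0.21, adjusted p = 1.88e-09 by limma), and without an offset its difference was -4.49. The others of the 14 were AT5G51890 (-2.59), AT3G13370 (-2.07), AT2G19970 (-2.07), AT1G11590 (-1.98), AT4G12890 (-1.97), AT4G24780 (-1.94), AT2G02515 (-1.93) and AT5G09370 (-1.89). In seeds stage 6 all 14 were at 97.4 or less, and 7 of them had their highest mean of the 8 groups at stage 3, where AT5G47350 read 2022 ± 128 and THI2.1 2983 ± 177. In seeds stage 8 AT5G47350, THI2.1, AT3G49270, AT2G02515 and AT1G29660 stood at 298, 269, 41.6, 33.2 and 32.7, above their siliques stage 5 means. At seeds stage 8 the others of the 14 were below theirs. PUB19, with a siliques stage 5 mean of 33.9, was above it at 41.7, 70.2 and 75.1 in seeds of stages 6, 7 and 9.

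The 3 xylan genes GUT2, IRX15 and IRX15-L fell, where 1.44% of all probe sets were called lower. Since the choice of IRX15 and IRX15-L followed their values, the 3 are a description and no count over the pathway. GUT2 (IRX10), which takes part in making the xylan backbone, was the 1 gene tested from the secondary wall list. It read 333, 306 and 324 at stage 4 and 143, 143 and 146 at stage 5 (-1.12 ± 0.10, adjusted p = 7.20e-09 by limma). IRX15 and IRX15-L, a pair of related proteins needed for xylan deposition, were picked out after their values were seen because they belong to the same pathway. IRX15 read 243, 245 and 254 and then 93.4, 91.8 and 90.3 (-1.36 ± 0.23, adjusted p = 1.14e-04 by limma), and IRX15-L 226, 228 and 242 and then 64.6, 63.5 and 63.4 (-1.75 ± 0.16, adjusted p = 4.91e-09 by limma). In all 3 genes the stage 5 arrays lay within a few signal units of each other and far below every stage 4 array. IRX15 lost its call without an offset, at -1.43.

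These xylan genes had risen on the step before. From stage 3 to stage 4 IRX15 went up by 3.93, IRX15-L by 2.46 and GUT2 by 2.53, from 9.63 ± 0.33, 36.4 ± 5.01 and 49.7 ± 3.76 (SD, n = 3). That step changed more of the array, 1594 higher (9.39%) and 1603 lower probe sets (9.45%), 18.8% in all. The 2 steps share the stage 4 arrays, so values are given side by side, and the arrays of stage 3 also had higher actin ratios (3.78 to 4.36), whose part in the result was not tested. The test of the difference between the steps called 3332 probe sets (19.6%), 1604 with the later step higher (9.45%) and 1728 with it lower (10.2%). Among them were IRX15 (-5.30 ± 0.41), IRX15-L (-4.22 ± 0.27) and GUT2 (-3.65 ± 0.18), each with an adjusted p under 0.05 by limma. In seeds stage 6 these genes read 2.49 ± 2.69, 20.2 ± 1.82 and 54.3 ± 3.36, so that only GUT2 was not below its stage 3 level.

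Other genes with a rise to stage 4 and a fall to stage 5 were CML38, a calmodulin-like protein, GSTU15, a glutathione transferase, and UBC31, a ubiquitin-conjugating enzyme. CML38 read 345, 271 and 258 and then 108, 112 and 97.9 (-1.39 ± 0.22), after a step of 1.98. GSTU15 read 142, 93.9 and 129 and then 46.2, 51.0 and 46.6 (-1.21 ± 0.23), after a step of 3.73. UBC31 read 137, 141 and 127 and then 52.3, 55.1 and 53.6 (-1.23 ± 0.24), after a step of 3.93. CML38 and UBC31 were named after their values were seen. GSTU15 and UBC31 lost their calls without an offset, at -1.32 and -1.33, and with one 4 times larger, at -0.96 and -1.0.

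The opposite course, a fall to stage 4 and a rise to stage 5, was seen in XTH16, EXO and STOMAGEN. XTH16, a xyloglucan endotransglucosylase that remodels growing walls, read 219 ± 8.68 at stage 3, 18.3, 22.9 and 19.98 at stage 4 and 127, 115 and 125 at stage 5 (2.24 ± 0.20, adjusted p = 5.67e-09 by limma). EXO, a brassinosteroid-responsive protein of expanding tissue, read 530 ± 43.8 at stage 3, 218, 234 and 224 at stage 4 and 754, 757 and 803 at stage 5 (1.75 ± 0.08, adjusted p = 2.60e-14 by limma). STOMAGEN, a secreted peptide that raises stomatal number, read 151 ± 8.74 at stage 3, 19.9, 15.5 and 15.6 at stage 4 and 45.2, 57.9 and 49.8 at stage 5 (1.27 ± 0.16, adjusted p = 1.09e-06 by limma). At stage 5 XTH16 and STOMAGEN were below their stage 3 level and EXO was above it. The difference between the steps was 5.28 ± 0.35, 2.96 ± 0.14 and 3.99 ± 0.27. XTH33 rose by 1.16 ± 0.32 (adjusted p = 0.011 by limma) from 9.10 to 14.1 up to 29.7 to 40.9, and lost the call at 1.04 without stage 5 array E, at 1.60 without an offset and at 0.65 when the offset was 4 times larger. XTH16 and XTH33 were the only called genes among 8 tested of the XTH family, whose median was 0.31, beside 3.33% of all probe sets called. EXO and STOMAGEN were named after their values were seen, and an offset 4 times larger left STOMAGEN at 0.81 without a call. The guard cell markers FMA, at 18.0 to 21.5 and 15.5 to 19.9, and AT1G22690 differed by -0.11 and 0.15.

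**Figure D5:**
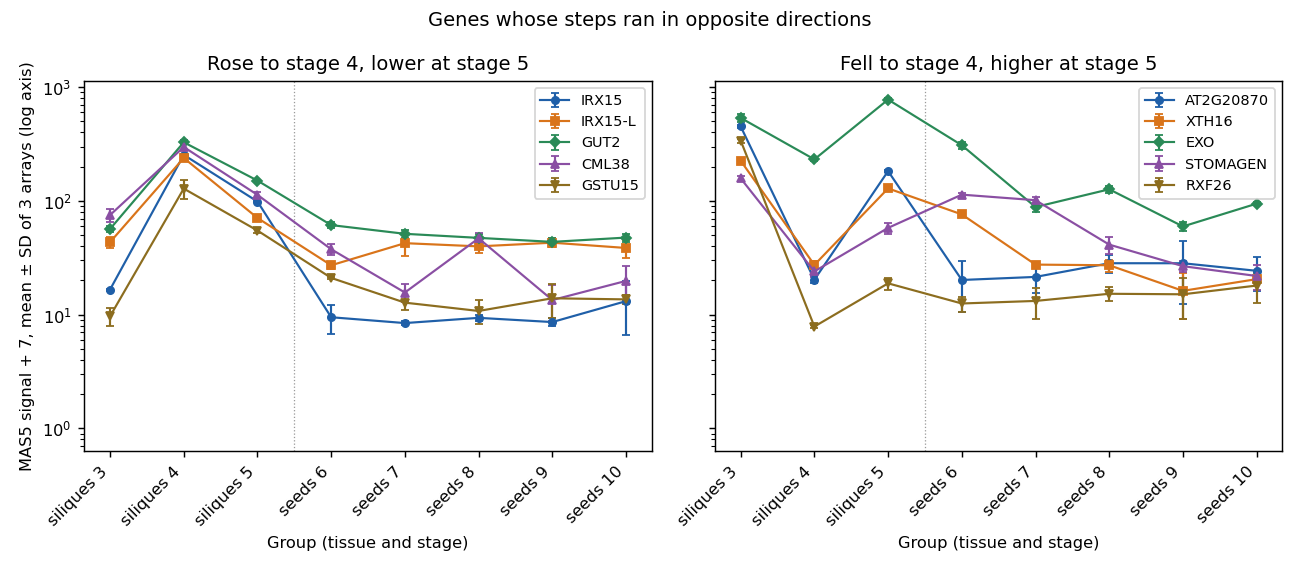
Mean MAS5 signal + 7 (log axis) with SD over 3 arrays is drawn across the 8 groups for 5 genes that were higher at siliques stage 4 than at stages 3 and 5, and for 5 that were lower there. The first set peaks at siliques stage 4, and the second dips there, with EXO alone reaching at stage 5 more than its stage 3 level.

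Seed coat pigment genes gave 1 call, where 3.33% of all probe sets were called. DFR, dihydroflavonol reductase on the way to tannins, read 954, 966 and 1176 at stage 4 and 480, 539 and 498 at stage 5 (-1.01 ± 0.09, adjusted p = 3.26e-09 by limma). It was the only call among the 4 tested genes of the list, whose median was -0.75, and it was short of 2-fold at -0.92 without stage 4 array F and -0.98 without stage 5 array D, and at -0.99 when arrays were centred on their 75th percentile or the offset was 4 times larger. CHIL, a chalcone isomerase-like helper, differed by -0.80 ± 0.11 and BAN by -0.70 ± 0.15, each past the adjusted p with no overlap of arrays, and UGT80B1, a sterol glucosyltransferase, by -0.29. BAN reached -1.0 and a call after quantile normalization. It had read 1777 ± 44.2 (SD, n = 3) at stage 3. The 4 mucilage genes had no call and a median of -0.01, from AT3G50990 at 177 to 204 and 134 to 156 (-0.37) to AT2G22900 (0.18).

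Further falls among genes with a symbol were picked after their values were seen. WSD1, which makes wax esters, read 151, 87.6 and 119 and then 33.2, 34.7 and 32.1 (-1.62 ± 0.20), and had been at 704 ± 58.5 at stage 3. SHN3, an activator of cutin genes, read 74.9, 69.7 and 86.3 and then 31.0, 31.8 and 32.1 (-1.12 ± 0.20), after 402 ± 13.1 at stage 3. AT5G61590 (DEWAX), a repressor of wax genes, rose by 1.14. COR15A and COR15B, neighbouring genes for chloroplast proteins of cold tolerance, read 174, 160 and 177 and then 52.1, 51.8 and 47.8 (-1.62 ± 0.30), and 212, 169 and 177 and then 77.1, 108 and 76.9 (-1.04 ± 0.23). COR15B was short of 2-fold without stage 4 array D (-0.95), stage 5 array D (-0.97) or stage 5 array F (-0.96). Without an offset WSD1 (-1.80) and COR15A (-1.75) lost their calls, and with one 4 times larger SHN3 (-0.81) and COR15B (-0.90) did. QQS, a small protein that acts on starch and protein content, read 69.8, 61.8 and 63.4 and then 17.1, 16.3 and 14.4 (-1.65 ± 0.21). Both probe sets of GLC (AT1G65450) fell, by 1.85 and 1.16, the only called gene among 75 with more than 1 tested probe set of its own, but the second was at -0.46 and lost its call when the offset was 4 times larger. That second probe set was dim, at 13.8 to 14.4 at stage 4 and 1.53 to 3.94 at stage 5. It did not pass the filter on the arrays of stages 4 and 5 alone.

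Photosynthesis, cell division and reference genes held no call. The 7 photosynthesis genes lay between -0.23 and 0.01, among them RCA, Rubisco activase, at 2538 to 2879 and 2477 to 2811. The 5 cell division genes lay between -0.38 and -0.09, all below 0 with a median of -0.28, and PRL, a licensing factor of DNA replication, read 143 to 164 and 110 to 121. The 6 reference genes ran from -0.11 to 0.10. In the silique wall list ADPG1, a polygalacturonase of valve opening, differed by 0.75 and ALC by -0.39, and neither reached 2-fold. The 4 pollen genes held no call. AT5G45880 read 219 to 233 and 228 to 239 and ANX2 7.06 to 15.3 and 7.10 to 13.5. AtVEX1 (SWEET5), at 213 to 228 and 303 to 334, differed by 0.54 (adjusted p = 0.0026 by limma), and MGH3, at 1.55 to 8.53 and 9.88 to 20.5, by 0.73 (adjusted p = 0.23), and in both the stage 5 arrays lay above the stage 4 arrays. Over all 24 lists 83 genes were tested, 14 rose (against 1.89% of all probe sets) and 2 fell, and 5 lists had no tested gene.

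In the 19 families read by name with at least 3 tested genes, 10 of 192 genes were called (5.2%), beside 3.33% of all probe sets. The calls lay in 8 families with 93 tested genes. The other 11 families held 99 genes, among them 29 UDP-glycosyltransferases, 16 sugar transporters, 15 expansins and 9 tubulins. Serine carboxypeptidase-like genes, 22 of them tested, held 2 falls. One was scpl20, at 1682, 1659 and 1796 and then 751, 754 and 747 (-1.18 ± 0.08), and the other scpl47, at 37.2, 37.3 and 32.1 and then 13.9, 11.3 and 11.7 (-1.14 ± 0.30), which lost its call at -0.93 after quantile normalization, at -1.53 without an offset and at -0.66 when the offset was 4 times larger. PDF2.1, a defensin-like peptide, rose from 207, 228 and 235 to 719, 703 and 697 (1.63 ± 0.12), 1 of 10 tested cysteine-rich genes. CYP71B37, 1 of 10 cytochrome P450 genes, rose by 1.2 from 1.02 to 8.87 up to 19.1 to 23.6. It was short of 2-fold at 0.90 without stage 4 array E, and the offset 4 times larger gave 0.55. It did not pass the filter on the 6 arrays of stages 4 and 5 alone.

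The 2 sets of called probe sets stood apart in the groups that were not compared. Of the 320 higher probe sets 277 (86.6%) were above the 40th percentile on all 3 arrays of seeds stage 6, and of the 245 lower ones 85 (34.7%), against 76.9% of all tested. At stage 3 the shares were 38.1%, 71.4% and 76.8%. Among the 6 groups other than the compared ones, the highest mean was in a seed group for 89.7% of the higher and 30.2% of the lower probe sets, against 66.6% of all tested. The median signal of the higher set ran from 18.2 in siliques stage 3 over 36.5 and 128 in the compared stages to 351 and 457 in seeds of stages 6 and 7. That of the lower set ran from 68.2 and 109 to 37.0, 15.0 and 11.5. In seeds stage 6 the median of the second set lay below the 40th percentile of each array (22.1 to 22.8), while the median of all tested probe sets stayed between 59.7 and 73.4 in all 8 groups. Levels in seeds without siliques come from another tissue mix, and these groups entered the filter and the fit. These values therefore describe where the sets are high and test nothing.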

How the data were processed

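The authors deposited 1 table of MAS5 signal intensities on a linear scale, per the submitters' processing notes; the sources used here give no software version, and no detection calls were used. Their scaling gave each of the 24 arrays a trimmed mean signal of 99.96 to 99.97 (2nd to 98th percentile over all probe sets), so a value is relative to the rest of its array. Of 22810 probe sets, 64 controls were left out. Testing was limited to probe sets that exceeded the array's 40th percentile of signals in 3 or more of the 24 arrays, which left 16967. This filter draws on all groups, so a probe set may pass through a group where it is high. Signals were used as log2(signal + 7), which understates the change of dim genes. Differences were fitted with limma 3.58.1 in R 4.3.3 (1 mean per group, variance trend, 16 residual degrees of freedom), with Benjamini-Hochberg adjustment over all tested probe sets. Errors are SD for signals and SE for log2 differences. The number of arrays limits the precision. The fit was tested on simulated data.

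Annotation of the array named no gene for 8794 probe sets, more than 1 for 503 and exactly 1 for 13513, of which 13436 matched the RefSeq gene table (assembly TAIR10.1), which supplied symbols and synonyms. The 9392 tested probe sets with 1 gene covered 9311 genes, and the brightest stood for its gene. Families were matched on symbols and synonyms, since that table holds no descriptions. No sequence is printed. The members, the 24 lists (342 genes, 92 with a probe set of their own) and the families were chosen with earlier results of these data known. Named were the 14 highest and 14 lowest called probe sets of 1 gene with arrays that did not overlap, up to 4 genes per list and up to 3 called genes per family. Called genes with a symbol, and other list members, were added after their values were seen. The main fit did not pair arrays by title letter. Alternatives changed the offset, filter, arrays fitted, scaling and variance prior, used the letter as a block and left out each array.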

Additional observations from a re-analysis of the deposited data

Results flagged for a closer look

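For 20 named genes the step from stage 4 to stage 5 ran against the step from stage 3 to stage 4, and the test of the difference between the steps (limma, adjusted p under 0.05) passed, and all 3 changes were at least 2-fold. Both steps use the stage 4 arrays, so an array set that reads high or low at stage 4 moves them in opposite directions. The difference, later step minus earlier step on the log2 scale, was 7.66 for AT2G20870, 6.69 for RXF26, 5.95 for AT4G38080, 5.28 for XTH16, 4.25 for AT3G02480, 4.14 for AT3G22620, 3.99 for STOMAGEN, 2.96 for EXO and 2.37 for XTH33, 9 genes that dipped at stage 4. It was -5.3 for IRX15, -5.15 for UBC31, -4.93 for GSTU15, -4.22 for IRX15-L, -4.1 for SK16, -3.84 for AT3G13370, -3.65 for GUT2, -3.37 for CML38, -3.35 for PUB19, -2.6 for APL3 and -2.27 for ORA47, 11 genes that were higher at stage 4 than on either side. Of these, AT4G38080 read 38.4, 31.9 and 36.7 at stage 3, 2.34, 3.33 and 4.04 at stage 4 and 134, 147 and 153 at stage 5. AT2G20870 read 456, 435 and 445, then 13.97, 11.7 and 14.2, then 173, 177 and 178. RXF26 read 340, 317 and 341, then 0.607, 0.997 and 0.994, then 9.17, 13.2 and 13.2. Its later step (1.25) lay within the dimmest signals, and RXF26 did not pass the filter on the arrays of stages 4 and 5 alone. An offset 4 times larger reduced that step to 0.46, without a call. With that offset ORA47 lay at -0.74, also without a call. Siliques stages 4 and 5 carry the title letters D, E and F and stage 3 A, B and C, and the sources used here do not state whether the letters mark a batch.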

How the results depend on the processing

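The counts of 320 higher and 245 lower probe sets became 197 and 115 with an offset 4 times larger (28), which shrinks every change of a dim gene, and 422 and 221 with none, of which 296 and 164 were among the 320 and 245. Under the other alternatives they lay between 287 and 335 and between 225 and 269. The lowest of these, 287 and 225, came from the filter on the 6 arrays of stages 4 and 5 alone. Leaving out 1 array gave 315 to 324 higher, 242 to 254 lower and 3142 to 3303 probe sets with unequal steps. The title letter as a replicate block gave 322 and 245. Deviations of arrays that share a letter correlated at 0.10 (D), 0.00 (E) and 0.08 (F), and those of different letters at -0.11 to 0.05. With 3 arrays a stage these values cannot show whether the letters pair the arrays. The block changed no call of a named gene. Of 77 named probe sets called, 50 were called under every alternative, and of 67 not called 62 were never called. None changed sign among the calls. No offset ended 12 of the calls and the larger offset 22. The former include IRX15, APL3 and COR15A, which are not dim at either stage, and the cause was not tested.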

Other observations

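A group that the lists had missed was put together after the values were seen: 45 genes known from studies of the response to low oxygen in Arabidopsis. Of 22 tested, 8 were called higher at stage 5, 1 lower and 13 neither, with a median of 0.67, beside 1.89% of all probe sets called higher. The choice followed the values, so the count is a description. AT4G27450 read 300, 322 and 334 at stage 4 and 1006, 1050 and 1053 at stage 5 (1.68 ± 0.09), and AT4G10270 264, 304 and 281 and then 794, 765 and 703 (1.39 ± 0.09). AT3G10040 (HRA1), a trihelix factor that restrains the low-oxygen response, read 56.97, 51.2 and 47.0 and then 217, 157 and 181 (1.70 ± 0.28). AT4G33560, AT3G27220, AT5G42200, AT4G24110 and AT5G66985 rose by 2.38, 1.49, 1.35, 1.30 and 1.30. AT5G66985 read only 1.35 to 5.06 at stage 4 and 13.99 to 24.2 at stage 5. It did not pass the filter on the arrays of stages 4 and 5 alone. The fermentation gene PDC2, pyruvate decarboxylase, read 270 to 286 and 319 to 355 (0.26) and was not called. CML38, which is also on the list, was the 1 that fell.

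Some called genes were neighbours on the chromosome. Among 3434 pairs of adjacent protein-coding genes that were both tested, 215 held a called gene and 6 (0.175%) held 2. Of single tested genes 3.01% were called, a share of genes that is not on the same scale as a share of pairs. Whether neighbours were called together more often than other genes was not tested. Of these pairs 4 moved the same way (SK16 with AT2G03200, COR15B with COR15A, AT2G44240 with AT2G44250, and AT3G04200 with AT3G04210). IRX15 fell by 1.36 while the gene beside it, AT3G50230, rose by 1.30. AT2G44250, also in a pair above, fell by 1.35 while AT2G44260 beside it rose by 1.14. Near-identical neighbours such as COR15A and COR15B can share probe signal, which was not tested.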
